A study of Rattus norvegicus with 12 samples.

Results

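The 10 genes described here carry the insulin and insulin-like growth factor (IGF) signal in the liver or shape it outside the cell, and were chosen by name: Insr, Irs1, Irs2, Akt2, Foxo1, Igf1, Igfbp1, Igfbp2, Igfbp3 and Igfals. They are 10 of the 24355 gene names in the table of hepatic transcript levels and take up 18 of its 34391 rows. Of these 18 rows, 14 were above 0 in at least 1 liver, as were 21718 rows in all. Where a gene has several rows, the one with the highest mean level is its main row. All 12 rats were female, of the inbred alcohol-preferring strain iP10a, and had food and tap water ad libitum. The 6 EtOH animals also drank from bottles with 10, 20 or 30% ethanol by volume, offered over 23 weeks, and the 6 controls had water only. Livers were collected at 38 weeks of age, except that of EtOH animal 6, collected at 39 weeks. Being inbred and of 1 sex, the rats stand for a single genotype, and each liver was 1 poly(A) library. Levels are in RPKM, reads scaled to the length of the transcript in kilobases and to the mapped reads of the library, so they can be compared between genes.

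Insulin binds its receptor on the hepatocyte, and the activated receptor phosphorylates the docking proteins Irs1 and Irs2. These recruit PI3-kinase, which activates the kinase Akt2, and Akt2 keeps the transcription factor Foxo1 out of the nucleus. When insulin is low, as in fasting, nuclear Foxo1 drives genes of glucose output together with Irs2 and Igfbp1. The liver is also the main source of circulating IGF-I, which growth hormone induces and which travels in blood bound to Igfbp3 and the acid-labile subunit Igfals. The question addressed by the comparison is how long-term free-choice drinking changes hepatic transcript levels.

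Between 2610238 and 4318141 whole reads were recovered from the values of each control liver and between 3945593 and 6030028 from each EtOH liver, so the EtOH libraries were deeper (exact permutation p = 0.0108, two-sided). Hepatocyte markers summed to 83655 to 118229 RPKM per liver and cholangiocyte markers to 3.90 to 8.27 RPKM, so the label liver holds in all 12. As deposited, EtOH values ran lower at most levels. Over the 1626 transcripts with a mean of 20 to 100 RPKM the median difference on the log2 scale was -0.15, and after quantile normalization it was 0.0039. Fold changes below are differences of quantile-normalized log2(RPKM + 0.5), tested with limma and adjusted by Benjamini-Hochberg over all 21718 transcripts. A transcript is called at an adjusted p under 0.05. In total 526 transcripts were called, 245 higher and 281 lower in EtOH. The split was 126 higher and 648 lower without normalization between livers, 194 and 337 with median scaling, and 139 and 448 with voom on the recovered reads.

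Of the 10 main rows, 3 were called, all higher in EtOH: Irs2, Igfbp1 and Igfbp3. The share called over all tested transcripts was 2.42%, with 1.13% called higher and 1.29% called lower. Among transcripts with a mean of at least 1 RPKM, a level that all 10 main rows exceed, 4.47% were called and 2.12% were called higher. The median log2 fold change of the main rows was 0.38, with 8 positive and 2 negative, beside a median of 0.00019 over all transcripts. An unadjusted p under 0.05 was found for 6 of the 10, and for 15.5% of all transcripts. No main row had groups without overlap in RPKM as deposited, which 3.10% of transcripts had. On the quantile-normalized scale the groups did not overlap for Igf1 and Igfbp3, 2 of the 10, with every EtOH liver above. That held in either direction for 2.59% of transcripts and with EtOH above for 1.33%. The margins were narrow: the highest control and the lowest EtOH liver stood at 7.085 and 7.108 for Igf1 and at 4.521 and 4.585 for Igfbp3 on that log2 scale.

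**Figure D1:**
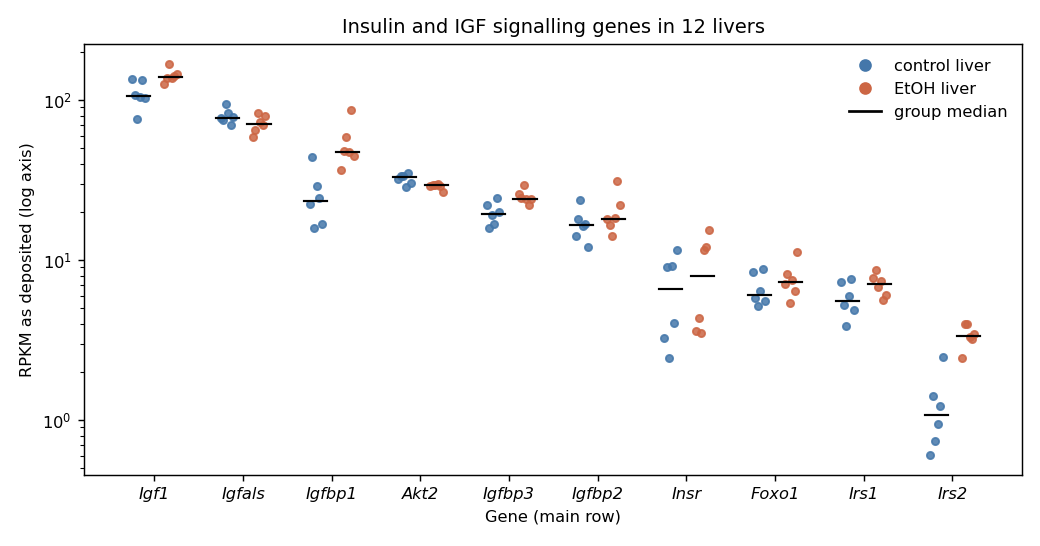
RPKM of the main row of each gene (log axis, genes in order of mean level) in 6 control and 6 EtOH livers, 1 point per liver, with a line at each group's median. Irs2 and Igfbp1 show the widest distance between groups, and the Insr points of both groups fall into a low and a high cluster.

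Per kilobase, Igf1 was the most abundant of the 10 in both groups and Irs2 the least. In controls the mean levels of the main rows ran from Igf1 (110 RPKM) through Igfals (79.7), Akt2 (32.2), Igfbp1 (25.4), Igfbp3 (19.7), Igfbp2 (16.8), Foxo1 (6.68), Insr (6.59) and Irs1 (5.80) to Irs2 (1.24). In this order the control ranges of neighbours overlapped from Akt2 to Igfbp2 and from Foxo1 to Irs1. Igfbp2 stood above Foxo1 and Irs1 above Irs2 without overlap. Ranges do not pair the genes within a liver, and liver by liver Foxo1 was above Irs1 in every control. In EtOH livers Igfbp1 (53.7 RPKM) stood above Akt2 (28.9), with no overlap between the genes, and the mean of the main Insr row was 8.44 against 7.63 for Foxo1. Summed over its rows Insr stood above Foxo1 in each of the 12 livers, with a mean of 10.3 RPKM in controls and 12.9 in EtOH. The EtOH ranges of Akt2, Igfbp3 and Igfbp2 overlapped, as did those of the main Insr row, Foxo1 and Irs1, and the lowest Irs1 value (5.63 RPKM) again lay above the highest Irs2 value (4.01). Main rows of Igf1 and Igfals overlapped in controls, at 76.2 to 135 and 69.9 to 94.99 RPKM, but summed over its rows Igf1 (133 RPKM or more) stood above Igfals in all 12 livers.

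Insulin receptor transcripts (chromosome 12: 2934967 to 3087691 as the authors list them, in a genome build not given in the sources used here) were spread over 3 rows with the same position. The main row, Insr.1, ran from 2.43 to 11.5 RPKM in controls, with a median of 6.57, and from 3.51 to 15.4 RPKM in EtOH livers, with a median of 7.99. These values fell into 2 clusters in each group. In controls 1, 3 and 5 and EtOH animals 1, 2 and 3, Insr.1 held 29.1 to 33.0% of the summed RPKM of the 3 rows, and in the other 6 livers it held 94.0 to 96.7%. The rest lay on Insr.2 and Insr.3. These 2 sets of livers were defined by the Insr.1 shares themselves, so the gap of 60.9 percentage points in Insr follows from that choice. The same split was sought in 3255 genes with several rows and a summed mean of at least 2 RPKM. Apart from Insr, none had shares that separated these livers by over 5 percentage points, and the next largest gap was 2.83. Genes whose rows split the livers in another way were not sought. The main row alone had a log2 fold change of 0.38 with a standard error of 0.46 (adjusted p = 0.71), and its 95% interval, -0.62 to 1.39, was the widest of the 10.

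**Figure D2:**
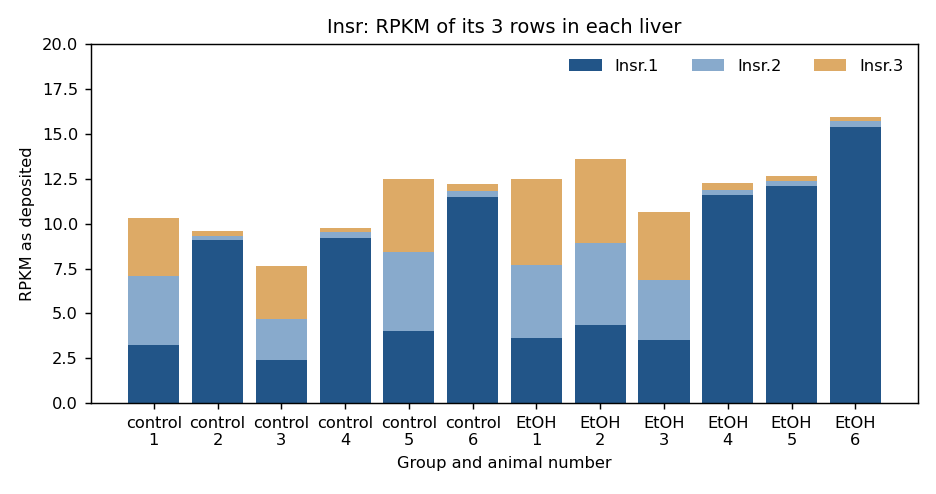
RPKM as deposited of the 3 Insr rows, stacked, in each control and EtOH liver. Insr.1 makes up 29.1 to 33.0% of the bar in 6 livers and 94.0 to 96.7% in the other 6, 3 of each group, while the full height varies much less, from 7.63 to 15.9 RPKM.

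Summed over the 3 rows, a step chosen after the split was seen, Insr was 7.63 to 12.5 RPKM in controls (median 10.1) and 10.6 to 15.9 RPKM in EtOH livers (median 12.6). Of the EtOH livers, 4 lay above every control, and all 6 lay above the control median. The log2 fold change of the sum was 0.43 with a standard error of 0.12, and the sum was called by a narrow margin (adjusted p = 0.0498 over 15270 summed genes, of which 6.40% were called and 3.16% were called higher). Within the livers of low Insr.1 share the mean sum was 10.1 RPKM in controls and 12.2 in EtOH, and within those of high share it was 10.5 and 13.6. In the high-share livers the 3 EtOH sums (12.3 to 15.9 RPKM) lay above the 3 control sums (9.61 to 12.2 RPKM), at the smallest two-sided p that an exact permutation of 3 against 3 allows, 0.1. In the low-share livers they overlapped (exact permutation p = 0.2). The call on the sum was lost with median scaling (adjusted p = 0.0645), without normalization (0.123), and in 10 of the 12 fits with 1 liver left out. It held without control 6 (0.0241) or EtOH 3 (0.0477), and was 0.0504 without control 5, 0.0708 to 0.0747 without control 1 or 3 or EtOH 1 or 4, and 0.0808 to 0.106 without control 2 or 4 or EtOH 2, 5 or 6.

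Irs2, a docking protein of the insulin receptor (chromosome 16: 83379987 to 83383967 in the authors' positions), rose in EtOH livers. Control livers ran from 0.604 to 2.49 RPKM, with a median of 1.09, and EtOH livers from 2.45 to 4.01 RPKM, with a median of 3.37. The groups overlapped through 1 pair of livers: control 6, the highest control, stood at 2.49 RPKM and EtOH 1, the lowest EtOH liver, at 2.45. The other 5 controls lay between 0.604 and 1.42 RPKM. Mean RPKM was 1.24 ± 0.684 (SD, n = 6) in controls and 3.40 ± 0.584 in EtOH, a ratio of 2.75, and the log2 fold change was 1.25 with a standard error of 0.24 (adjusted p = 0.0235). It was also called without normalization (0.0143) and with median scaling (0.0185). The level is low: 119 reads in all were recovered for Irs2 in controls and 425 in EtOH, between 7 and 107 per liver. Leaving out control 4 (adjusted p = 0.0515), EtOH 2 (0.0627) or EtOH 3 (0.0568) ended the call, and leaving out control 6 lowered the adjusted p to 0.0050.

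Irs1, the other docking protein (chromosome 9: 81585251 to 81638071), ran from 3.87 to 7.60 RPKM in controls (median 5.59) and from 5.63 to 8.68 in EtOH livers (median 7.10). All 6 EtOH livers lay above the control median, but only 2 above the highest control, and the log2 fold change of 0.37 (standard error 0.15) was not called (adjusted p = 0.26). The ratio of Irs2 to Irs1 RPKM ran from 0.0826 to 0.514 in controls, with a median of 0.177, and from 0.317 to 0.592 in EtOH livers, with a median of 0.515. Irs1 was thus the more abundant of the pair per kilobase in all 12 livers.

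Akt2, the kinase, and Foxo1, the transcription factor it restrains, were not called. Akt2 (chromosome 1: 82686233 to 82726544) ran from 28.5 to 34.9 RPKM in controls and from 26.6 to 29.8 RPKM in EtOH livers, every EtOH liver below the control median of 32.9. This difference is of the size by which transcripts of the same level shifted as a whole. Its log2 fold change was -0.15 without normalization (adjusted p = 0.19), -0.06 with median scaling and -0.00085 after quantile normalization, with a 95% interval of -0.13 to 0.12. Foxo1 (chromosome 2: 141127450 to 141202321) ran from 5.16 to 8.74 RPKM in controls (median 6.09) and from 5.36 to 11.2 RPKM in EtOH livers (median 7.29). Its groups overlapped over most of their range, with EtOH 6 alone above all controls, and its log2 fold change was 0.27 (standard error 0.16, adjusted p = 0.47).

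Igfbp1, which binds IGF-I in blood and whose gene insulin represses, rose in EtOH livers. Its level ran from 15.9 to 44.1 RPKM in controls, with a median of 23.4, and from 36.8 to 87.2 RPKM in EtOH livers, with a median of 47.4. EtOH 5, at 87.2 RPKM, was the highest and stood well above the next, EtOH 3 at 58.5. The groups overlapped through control 2, whose 44.1 RPKM exceeded EtOH 1 at 36.8, and the other 5 controls lay at or below 29.2 RPKM. Mean RPKM was 25.4 ± 10.4 (SD, n = 6) in controls and 53.7 ± 17.8 in EtOH, a ratio of 2.11, with 857 and 2531 reads in all, and the log2 fold change was 1.25 with a standard error of 0.25 (adjusted p = 0.0236). Igfbp1 was also called without normalization (0.0316) and with median scaling (0.0317). The call ended without EtOH 2 (adjusted p = 0.0565) or EtOH 3 (0.0531) and held in the other 10 fits with 1 liver left out.

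**Figure D3:**
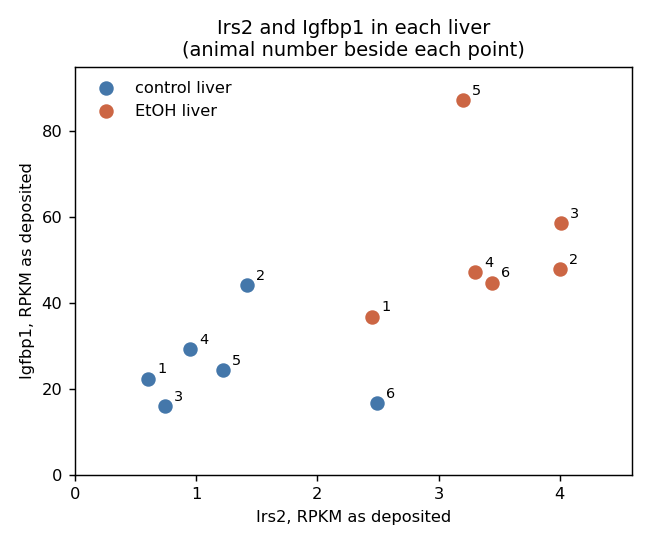
RPKM as deposited of Irs2 (x axis) and Igfbp1 (y axis) in each liver, control and EtOH in separate colours, with the animal number beside each point. The control that is highest for Irs2 (animal 6) is not the control that is highest for Igfbp1 (animal 2).

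At the pseudocount of 0.5, Irs2 and Igfbp1 both had a log2 fold change of 1.25, a likeness that rests on that setting. It was 1.52 for Irs2 and 1.26 for Igfbp1 at a pseudocount of 0.1, and 1.03 and 1.23 at a pseudocount of 1. Within a group the livers were not in the same order for both genes. Control 6, the highest control for Irs2, was among the lowest for Igfbp1 at 16.7 RPKM. Control 2, the highest for Igfbp1, came next after control 6 for Irs2, at 1.42 RPKM. Pearson's r between them on the quantile-normalized log2 scale was 0.0024 in controls (exact permutation p = 0.99; Spearman's rho = 0.26, exact p = 0.66; n = 6) and 0.43 in EtOH (exact permutation p = 0.39; rho = 0.37, exact p = 0.50; n = 6). Without the 2 livers farthest from the median of Irs2, r was 0.84 and 0.043. In all, 12 such relations were computed, for 6 pairs of genes in each group, and none passed adjustment. The smallest adjusted exact p was 0.47, shared by Igf1 with Igfals in EtOH (r = 0.85, rho = 0.83, n = 6), where r fell to -0.14 without the 2 livers farthest from the median of Igf1, and by Igf1 with Igfbp3 in EtOH (r = 0.81, rho = 0.60, n = 6), where it was 0.95 without such livers.

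The sequence upstream of a gene is where Foxo1 is known to act on Igfbp1, through a pair of neighbouring core motifs. The 250 bases before the start were taken from RefSeq promoters of build GRCr8 for the 9 members that matched, all but Irs2. They were searched on both strands for CAAAACA, the insulin response core, for GTAAACA, a common Foxo core, and for the pair written CAAAACANNNNTATTTTG, which holds the first motif within it. The pair was modelled on the element known from Igfbp1 itself, so finding it there is no result. Among 33469 promoters, 5.46% held CAAAACA and 3.21% held GTAAACA, and the pair was found in 1, that of Igfbp1. The promoters of Igfbp1 and Igfbp3 are shown because both genes were called, and those of Igf1 and Insr because they hold the other matches. Capitals mark the matched letters, and each is read 5′ to 3′ on the strand of its gene.
Igfbp1: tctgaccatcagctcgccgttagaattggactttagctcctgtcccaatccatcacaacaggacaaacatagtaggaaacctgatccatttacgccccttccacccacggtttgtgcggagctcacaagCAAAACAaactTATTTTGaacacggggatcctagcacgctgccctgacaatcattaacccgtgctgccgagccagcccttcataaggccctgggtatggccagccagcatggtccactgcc
Igf1: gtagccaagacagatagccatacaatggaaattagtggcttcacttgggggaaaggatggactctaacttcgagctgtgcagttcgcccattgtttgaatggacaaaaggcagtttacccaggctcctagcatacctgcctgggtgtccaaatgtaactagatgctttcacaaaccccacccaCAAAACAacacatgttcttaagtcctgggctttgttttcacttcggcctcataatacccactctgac
Insr: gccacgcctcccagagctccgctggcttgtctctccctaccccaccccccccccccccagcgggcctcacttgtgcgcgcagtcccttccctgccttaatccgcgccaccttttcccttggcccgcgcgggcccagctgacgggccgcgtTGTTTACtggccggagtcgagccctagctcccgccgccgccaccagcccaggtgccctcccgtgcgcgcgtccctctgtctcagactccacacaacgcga
Igfbp3: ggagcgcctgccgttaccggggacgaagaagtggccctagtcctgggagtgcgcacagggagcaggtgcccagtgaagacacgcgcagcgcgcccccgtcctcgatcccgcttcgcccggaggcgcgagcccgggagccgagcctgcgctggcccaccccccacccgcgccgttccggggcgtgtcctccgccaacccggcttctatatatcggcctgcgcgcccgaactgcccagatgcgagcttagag
In GRCr8 these lie at chr14:86261027-86261276 (plus strand), chr7:24172282-24172531 (plus), chr12:6128804-6129053 (minus) and chr14:86277945-86278194 (minus). In Igfbp1 the pair lies 121 to 104 bases before the start, in Igf1 the single CAAAACA lies 67 to 61 bases before it, and in Insr the match to GTAAACA is on the opposite strand, 100 to 94 bases before it. The other 6 windows held none of these letters.

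Igfbp3, the main carrier of IGF-I in blood, rose in EtOH livers by less than Igfbp1. It ran from 15.9 to 24.4 RPKM in controls, with a median of 19.5, and from 22.2 to 29.6 RPKM in EtOH livers, with a median of 24.3. All controls but animal 5 (24.4 RPKM) lay below every EtOH liver, and EtOH 3 was the highest. Mean RPKM was 19.7 ± 3.22 (SD, n = 6) in controls and 25.1 ± 2.55 in EtOH, a ratio of 1.27, with 1037 and 1846 reads in all, and the log2 fold change was 0.50 with a standard error of 0.11 (adjusted p = 0.0301). Igfbp1 (87950222 to 87955289) and Igfbp3 (87959153 to 87967097) are neighbours on chromosome 14 in the authors' positions, 3863 bases apart with no other row between them. The Igfbp3 call depended on the scaling: its adjusted p was 0.0448 with median scaling, 0.0898 without normalization, where the log2 fold change was 0.35, and 0.0843 with voom. It was also lost without control 2 (0.0603), control 3 (0.0578), control 4 (0.0656), EtOH 1 (0.0577), EtOH 2 (0.0715), EtOH 3 (0.0659) or EtOH 4 (0.0554).

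In rat liver Igfbp3 is known to be made chiefly by non-parenchymal cells, and the summed markers of those cells were also higher in EtOH livers. Of 6 Kupffer cell and leukocyte markers, 3 were called higher (Cd163, Clec4f and Vsig4), and their summed level was 84.7 to 125 RPKM in controls and 117 to 152 in EtOH (exact permutation p = 0.0108, two-sided). Of 4 endothelial markers, 1 was called higher (Cdh5), with sums of 27.7 to 35.2 and 32.7 to 45.5 RPKM (exact permutation p = 0.0065). Of 7 stellate cell and fibroblast markers, 1 was called higher (Col3a1), with sums of 24.6 to 34.5 and 31.3 to 50.7 RPKM (exact permutation p = 0.0065). Over all transcripts tested limma called 1.13% higher, and 2.12% among those with a mean of at least 1 RPKM. Voom called 1 of the 6 Kupffer cell and leukocyte markers and 0 of the endothelial and of the stellate cell and fibroblast markers. None of these 17 markers was at 0 in all livers of a group. Each sum was mostly 1 gene, so its p says little about the other markers. In controls Clec4f averaged 66.4 of 106 RPKM, Lyve1 17.2 of 30.7 and Col3a1 19.5 of 29.4. Limma called none of 5 hepatocyte markers (1 with an unadjusted p under 0.05) and none of 4 cholangiocyte markers (0), and voom called 0 of either. That 1 was Ahsg, at a mean of 1067 RPKM in controls and 1290 in EtOH (log2 fold change 0.35, adjusted p = 0.0598). Hepatocyte marker sums averaged 96294 RPKM in controls and 105138 in EtOH (exact permutation p = 0.12, two-sided). For the hepatocyte markers Alb and Tf limma could not make a call, since quantile normalization left log2 fold changes of 1.9e-15 and 1.1e-16. As deposited, mean Alb was 70352 RPKM in controls and 79085 in EtOH, and mean Tf 15252 and 15074. The part of these cells in the Igfbp3 difference was not tested, and in bulk liver more cells of a type and more RNA per cell cannot be told apart.

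Igfbp2, another binding protein that insulin is known to lower, was not called. It ran from 12.0 to 23.6 RPKM in controls (median 16.5) and from 14.1 to 31.2 in EtOH livers (median 18.2) on its main row (chromosome 9: 71966849 to 71994203), and its second row was listed at 0 in all livers. EtOH 5, the highest liver for Igfbp1, was also the highest for Igfbp2 and the only EtOH liver above all controls. The log2 fold change was 0.38 with a standard error of 0.17 (adjusted p = 0.30). Igfals (chromosome 10: 14128636 to 14130444) ran from 69.9 to 94.99 RPKM in controls (median 77.5) and from 58.5 to 83.3 RPKM in EtOH livers (median 71.2), with 3 EtOH livers below every control. As with Akt2, the difference without normalization (-0.16 on the log2 scale, adjusted p = 0.43) was of the size of the shift shared by transcripts of that level, and after quantile normalization it was -0.0072 with a 95% interval of -0.19 to 0.17.

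Igf1, the hormone itself, lay on 6 rows, 3 of them listed at 0 in every liver. Its main row (chromosome 7: 24531669 to 24605742) ran from 76.2 to 135 RPKM in controls, with a median of 106, and from 126 to 169 RPKM in EtOH livers, with a median of 140. As deposited, 5 EtOH livers lay above every control. Mean RPKM was 110 ± 22.0 (SD, n = 6) in controls and 143 ± 14.5 in EtOH, a ratio of 1.30, and the log2 fold change was 0.55 with a standard error of 0.15, which was not called (adjusted p = 0.0738). The other rows above 0, Igf1.6 and Igf1.5, had log2 fold changes of 0.37 (adjusted p = 0.15) and 0.41 (0.15). The main row held 57.2 to 73.9% of the summed Igf1 RPKM, with the lowest and the highest share both among controls.

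Summed over its rows, Igf1 was called higher (adjusted p = 0.0234 over 15270 genes). The sums ran from 133 to 212 RPKM in controls, with a median of 182, and from 190 to 260 RPKM in EtOH livers, with a median of 217. Of the EtOH livers, 4 lay above every control, and the log2 fold change was 0.47 with a standard error of 0.11. The call on the sum was lost without EtOH 3 (adjusted p = 0.0509) and without normalization between livers (0.0610). The call on the main row also turned on the settings, since its adjusted p was 0.0354 when transcripts with a mean under 1 RPKM were left out and 0.0389 without control 1. On summed RPKM, 5 of the 10 members were called, all higher: Irs2, Igfbp1, Igfbp3, Igf1 and Insr. Over all 15270 summed genes 6.40% were called, and 3.16% were called higher.

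**Figure D4:**
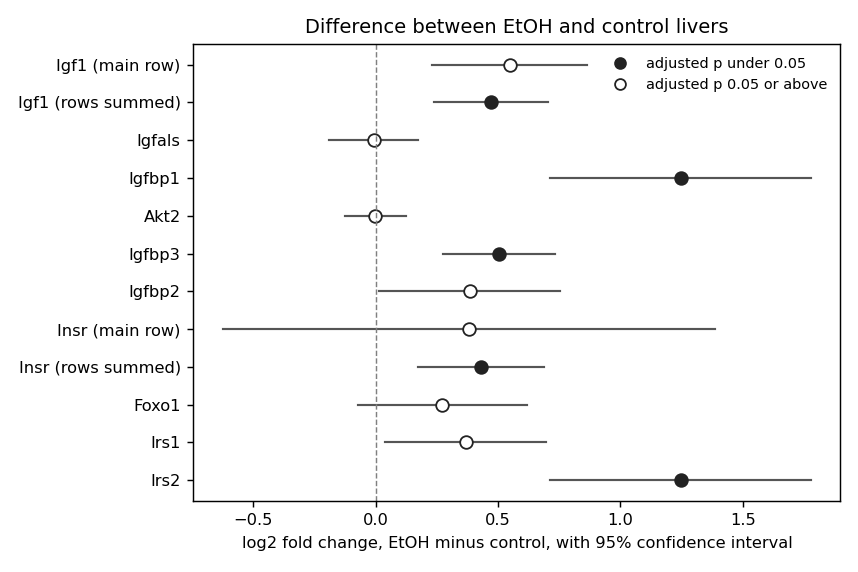
Log2 fold change (EtOH minus control, quantile-normalized) of the 10 genes with 95% confidence intervals, for main rows and, for Igf1 and Insr, also for RPKM summed over rows. Filled points have an adjusted p under 0.05. Irs2 and Igfbp1 stand farthest from 0, Akt2 and Igfals lie at 0, and summing narrows the interval of Insr from -0.62 to 1.39 down to 0.17 to 0.69.

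Other genes of the pathway were taken from 7 lists by role, which hold 92 genes, 77 of them found above 0. Of the 77, 5 were called higher and 2 lower, and their median log2 fold change was 0.066. Over all transcripts tested 2.42% were called, and 4.47% among those with a mean of at least 1 RPKM. An unadjusted p under 0.05 was found for 15.5% of all transcripts tested. Limma called none of 8 receptors and docking proteins (smallest p: the adaptor Grb2, log2 fold change 0.18, adjusted p = 0.096) and none of 19 PI3K-AKT-mTOR kinases and effectors, of which 3 and 7 had an unadjusted p under 0.05, and voom called 0 of either list. In the second of these lists Tsc1, an inhibitor of mTOR complex 1, had the smallest p (0.41, adjusted p = 0.089). Grb2 averaged 31.5 RPKM in controls and 32.1 in EtOH as deposited. Its log2 fold change was 0.022 without normalization and 0.041 with voom. Of 16 inhibitors of insulin signalling, 1 was called: Deptor, an inhibitor of mTOR listed under its older name Depdc6, rose from 6.51 ± 1.82 (SD, n = 6) to 10.2 ± 1.79 RPKM (log2 fold change 0.73, adjusted p = 0.0411). Neither limma nor voom called any of the 9 other IGF ligands, binding proteins and proteases (2 with an unadjusted p under 0.05 by limma). Igfbp7 came nearest, at 22.4 to 28.5 RPKM in controls and 26.5 to 33.6 in EtOH (log2 fold change 0.36, adjusted p = 0.0625). The summed non-parenchymal markers given beside Igfbp3 were also higher in EtOH, and a relation of Igfbp7 to them was not tested. Igfbp4, the most abundant binding protein transcript at 580 RPKM in both groups, had a log2 fold change of 0.02. It is named here after its values were seen. Neither called any of 6 growth hormone signalling genes (2 with an unadjusted p under 0.05), and Stat5a had the smallest p (log2 fold change -0.39, adjusted p = 0.11). It was the only negative one, with 5 of the 6 positive. Stat5b, more abundant than Stat5a at a mean of 15.0 against 3.34 RPKM, had a log2 fold change of 0.14. The largest was that of Socs2, at 1.08 (adjusted p = 0.26).

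Of 9 genes that insulin suppresses in the liver, 3 were called, all higher. An unadjusted p under 0.05 was found by limma for 4 of the 9, beside 15.5% of all transcripts. Their median log2 fold change was 0.089, with 7 of the 9 positive. Over all transcripts tested 1.13% were called higher and 1.29% lower. Pck1, which catalyses a committed step of gluconeogenesis, rose from 265 ± 49.9 to 796 ± 184 RPKM (log2 fold change 1.62, adjusted p = 0.00051), with no overlap between groups. The other called genes were Pdk4, which restrains glucose oxidation (0.89, adjusted p = 0.0478), and Ccng2, a known Foxo target (0.68, adjusted p = 0.0294). Bcl6 went the other way, from 2.04 ± 1.47 to 0.839 ± 0.279 RPKM, and was not called (log2 fold change -0.78, adjusted p = 0.25). Of 10 genes that insulin induces, 2 were called lower and 1 higher. An unadjusted p under 0.05 was found by limma for 6 of the 10. Their median log2 fold change was -0.39, with 4 of the 10 positive. Srebf1, the factor that drives lipid synthesis genes, fell from 76.2 ± 12.1 to 31.3 ± 14.5 RPKM (log2 fold change -1.22, adjusted p = 0.0301). Slc2a2, the glucose transporter Glut2, rose from 140 ± 10.1 to 174 ± 30.6 RPKM (0.46, adjusted p = 0.0252), against the direction of Srebf1. Scd1, in the same list, also went up, from 386 ± 97.3 to 650 ± 202 RPKM, and was not called (0.76, adjusted p = 0.13). Bcl6 and Scd1 are named here after their values were seen. The study itself reported Pck1, Srebf1 and Irs2 from these livers, and found the same directions by quantitative RT-PCR on the same samples. All genes here come from those livers, and the lists were chosen with earlier results known. No direction given here is therefore independent evidence.

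**Figure D5:**
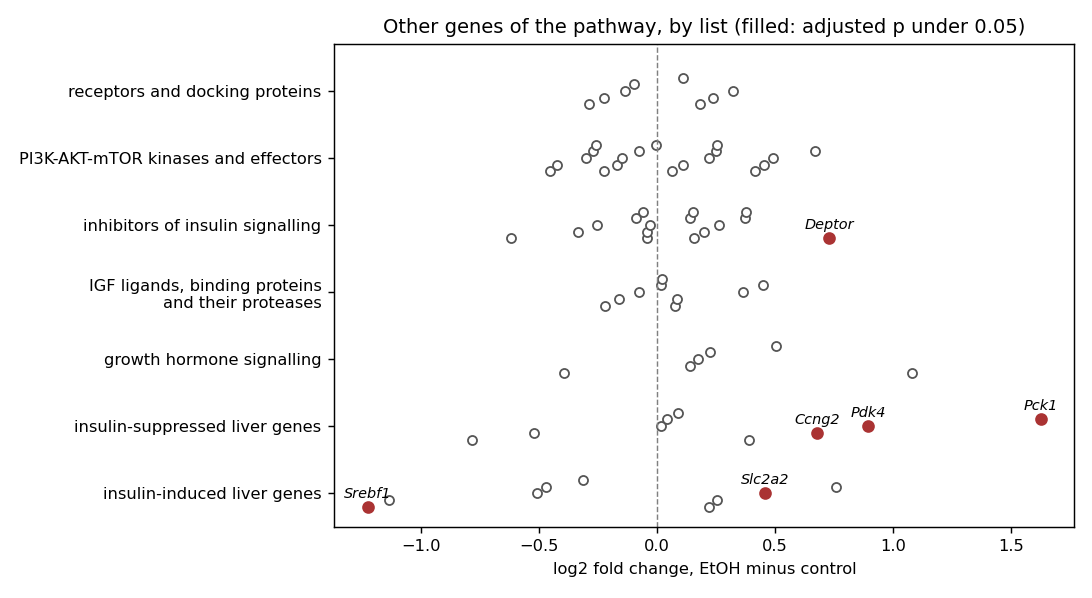
Log2 fold change (EtOH minus control, quantile-normalized) of the other pathway genes, 1 point per gene, in 7 lists by role, with 1 gene not shown. Filled, named points have an adjusted p under 0.05, and 3 of them, all higher, lie in the list of genes that insulin suppresses.

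With each liver left out in turn, Pck1 kept its call in all 12 fits (adjusted p up to 0.0026). Slc2a2 lost its call without control 2, EtOH 2 or EtOH 6 (0.0530 to 0.0535), and also without normalization between livers (0.125), with median scaling (0.0513) and with voom (0.121). Srebf1 kept its call only without control 5 or 6 or EtOH 3 or 5, and was 0.0507 to 0.0694 otherwise. Ccng2 kept its call only without control 1, 5 or 6 or EtOH 6 and was 0.0528 to 0.0685 otherwise. Deptor kept its call only without control 5 or 6 or EtOH 1 (0.0535 to 0.0888 otherwise), and Pdk4 only without control 6 or EtOH 6 (0.0661 to 0.104 otherwise). Both also lost their calls under other scalings: without normalization, with median scaling and with voom the adjusted p was 0.0744, 0.0513 and 0.0940 for Deptor and 0.0504, 0.0550 and 0.0539 for Pdk4. Igfbp7 was called without control 1 (0.0475) or control 6 (0.0337).

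The transcripts whose levels followed the called members most closely across the 12 livers, after each group's mean was taken out, were sought among 11086 with a mean of at least 1 RPKM. These are descriptions over 12 points that share their libraries. For Irs2 they were Hbp1 (Pearson's r = 0.90), Srgn (0.89) and Hccs (0.88). For Igfbp1 they were RGD1565310 (0.90), Rere (0.89) and Pdcd6 (0.89). For Igfbp3 they were Mapkapk5 (0.87), Prps2 (0.86) and App (0.86). Of these 9, Hbp1 was called between the groups (log2 fold change 0.31, adjusted p = 0.0389).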

How the data were processed

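Poly(A) RNA of 12 livers was sequenced in 101-nucleotide paired-end reads, with all barcoded libraries pooled in 1 lane. The authors made the deposited RPKM values with CLCbio Genomics Workbench 4.9 from reads mapped to a rat genome (build: not given in the sources used here). Their table also holds their own fold change, test statistic, p and FDR columns, which were not used. Columns of no sample numbered 0. How reads shared by rows of 1 gene were assigned is not stated.

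Whole reads were recovered, within 0.01 reads, for 19666 of the 21718 transcripts above 0, as the smallest whole numbers in the ratios of their RPKM values. A further 2052 were above 0 in 1 liver only. The recovered reads served for depth and for voom, and they limit the precision of low genes. In the main comparison, limma 3.58.1 (R 4.3.3) with a mean-variance trend was applied to quantile-normalized log2(RPKM + 0.5), 6 EtOH against 6 control livers, with Benjamini-Hochberg adjustment. Single values were compared by two-sided exact permutation over 924 regroupings. All else was done in Python 3.11.15 with scipy 1.17.1, pandas 2.3.3 and numpy 2.4.6. The procedure was tested on simulated data.

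The members and lists were chosen with earlier results of these data known. Named are all members, the called genes of each pathway list (at most 5, by p) or its gene of smallest p, and the 3 transcripts most like each called member. Of 92 list genes, 78 were found by symbol, older name or RefSeq synonym (GRCr8, names and promoters only), 1 of them at 0, and 1 called gene is counted but not reported here. A few names were added as aliases after the table's names, but not their values, had been seen. Alternatives were pseudocounts of 0.1 and 1, no normalization, median scaling, square-root values, a minimum mean of 1 RPKM, limma without its trend, animal number as block, voom, each liver left out, and, chosen after seeing the data, RPKM summed over the rows of a gene, with its own scalings and livers left out.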

Additional observations from a re-analysis of the deposited data

Results flagged for a closer look

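Akt2 in EtOH animal 6 was 26.6 RPKM, while the other 5 EtOH livers lay within 28.9 to 29.8 RPKM. The gap to the nearest of them was 0.724 of the range of the group, above the critical value of Dixon's test for 6 samples. This was 1 of 44 groups tested, of which chance flags about 1 in 20. The animal is the one collected at 39 weeks of age. The part of age in this value was not tested.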

How the results depend on the processing

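Called transcripts numbered 526 in the main comparison, 322 with the unmoderated test on square-root values, 860 of 11086 with a minimum mean of 1 RPKM, 977 genes when rows were summed, and 212 to 656 with 1 liver left out. Called members numbered 3, and 1, 4, 5 and 0 to 4 in the same order. The transcript count fell by over 1.5 times without control 2 (275), control 4 (285) or EtOH 2 (212), 3 (252), 4 (295) or 5 (298). By limma without EtOH 2 or EtOH 3, 0 members were called (5 and 7 with an unadjusted p under 0.05), and without control 4, 1 was, while voom on all livers called 2. Called genes of the pathway lists numbered 7, 4 with median scaling, 3 with the unmoderated test and 2 to 9 with 1 liver left out, with 4 or fewer without control 2, 3 or 4 or EtOH 1, 2, 3, 4 or 6.

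Adjusted p of single members moved across the threshold as follows. With the unmoderated test it was 0.0616 for Igfbp1 and 0.0536 for Igfbp3. For Igfbp3 it was 0.0898 without normalization and 0.0843 with voom. For Igf1 it was 0.0354 with the minimum of 1 RPKM, which leaves fewer transcripts to adjust over, and 0.0234 when summed. Insr was 0.0498 when summed, 0.123 for that sum without normalization and 0.0645 with median scaling, and the Igf1 sum was 0.0610 without normalization. Other causes were not tested. With 1 liver left out the ranges were 0.0050 to 0.0627 for Irs2, 0.0116 to 0.0565 for Igfbp1, 0.0257 to 0.0715 for Igfbp3, 0.0389 to 0.141 for Igf1, 0.0241 to 0.106 for the Insr sum and 0.0118 to 0.0509 for the Igf1 sum. The sign of the near-0 differences of Akt2 (adjusted p 0.776 to 1.000, log2 fold change -0.033 to 0.036) and Igfals (0.757 to 1.000, -0.057 to 0.045) turned in some of these fits, as did that of cholangiocyte marker sums (exact permutation p 0.567 to 0.974). The exact permutation p of hepatocyte marker sums was 0.0303 to 0.238, and below 0.05 without control 6 or EtOH 6 (0.0476). Pearson's r changed sign for Irs2 with Igfbp1 in controls without normalization (-0.0069), and without the 2 livers farthest from the median for Irs2 with Foxo1 in controls (0.32), and in EtOH for Irs1 with Irs2 (-0.36), Igf1 with Igfals (-0.14) and Igfals with Igfbp3 (-0.13). Pseudocounts of 0.1 and 1, limma on square-root values and no trend left 3 members called.

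Animals of the 2 groups share numbers. Over 11086 transcripts, deviations of livers with the same number had r between -0.067 and 0.032, and those of other pairs between -0.071 and 0.067. Such r over the whole transcriptome cannot tell whether the number stands for anything the animals shared. With the number as a block, which takes degrees of freedom, 113 transcripts, 0 members by limma (5 with an unadjusted p under 0.05, Irs2 0.0672, Igfbp1 0.0788, Igfbp3 0.124) and 2 genes of the pathway lists were called. Depth limits Irs2 most, with as few as 7 reads in a liver.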
